A study of Mus musculus with 24 samples.

Results

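The set described here holds 8 genes: the 2'-5' oligoadenylate synthetase genes Oas1c, Oas1d and Oas1e on mouse chromosome 5, and the Ifit genes Ifit1, Ifit2, Ifit3, Ifit1bl1 and Ifit1bl2 on chromosome 19. Each symbol matched 1 gene, and the 8 were chosen by name from 55471 genes quantified. Ifit1bl2 was put in the set because its enrichment by the m6A antibody was lost between the metaphase II (MII) oocyte and the late 1-cell embryo. Its values in MII and late 1-cell libraries are therefore given as a description, without a test, and it is left out of every count of called members that uses those libraries.

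The study followed N6-methyladenosine (m6A), the commonest internal modification of mRNA, through the maternal-to-zygotic transition. SLIM-seq, a low-input form of m6A RNA immunoprecipitation, gave 3 immunoprecipitated (IP) libraries and 3 input libraries for each of MII oocytes, late 1-cell (L1C) embryos and late 2-cell (L2C) embryos, 18 libraries in all. Oocytes came from wild-type B6D2F1 females that were superovulated at 8 weeks of age, and embryos came from matings of such females with B6D2F1 males. A second experiment compared L2C embryos injected as zygotes with Cas13d mRNA and crRNAs against Ythdc1, a nuclear m6A reader (Ythdc1 KD, 3 libraries), with embryos that received Cas13d mRNA only (control, labelled NC, 3 libraries). No label says which libraries share animals or cultures, so p-values measure the spread between these libraries, which may be technical. In such bulk samples, fewer cells of a type and less RNA per cell cannot be told apart.

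OAS proteins sense double-stranded RNA and, in their active forms, make 2'-5' linked oligoadenylates, which act as a signal of infection. The mouse carries a tandem cluster of Oas1 genes, in which Oas1a and Oas1g code for active synthetases and Oas1d for an oocyte protein that lacks this activity and can inhibit it. IFIT proteins bind foreign RNA by its end and block its translation, and the genes of both families are classic targets of interferon through promoter elements read by STAT and IRF factors. Oocytes and early embryos are known for a weak interferon response, which is the background against which the levels below can be read.

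On GRCm38 the Oas1 members lie on chromosome 5, Oas1e at chr5:120786226-120795530 (-), Oas1c at chr5:120800194-120812514 (-) and Oas1d at chr5:120914536-120921652 (+). The Ifit members lie on chromosome 19 in the order Ifit2 chr19:34550694-34576419 (+), Ifit3 chr19:34583531-34588731 (+), Ifit1bl1 chr19:34592891-34601956 (-), Ifit1bl2 chr19:34617049-34640743 (-) and Ifit1 chr19:34640871-34650009 (+). Both gene clusters are tandem duplications, and how alike the members are matters for how reads were assigned to them. Between coding sequences, Oas1d and Oas1e were identical at 90.7% of 1086 aligned bases, Oas1c and Oas1d at 85.2% and Oas1c and Oas1e at 86.0%. Of the distinct 31-base words in the annotated transcripts, 20.7% for Oas1c, 21.8% for Oas1d and 24.2% for Oas1e also occurred in another Oas1 gene. Ifit1bl1 and Ifit1bl2 were identical at 88.2% of aligned coding bases and shared 412 such words. Ifit3 and its neighbour Ifit3b were identical at 99.1%, and 61.8% of the words of Ifit3 were shared, so the reads of these genes cannot be assigned with confidence. Ifit2 shared no word with the rest of its cluster.

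The following coding windows (GRCm38 coordinates, GENCODE M21 exons, each 5' to 3' on the strand of the gene) are shown because GGACT, in capitals, is the best known form of the m6A consensus. Oas1d chr5:120919085-120919109 (+), exon 4, and Oas1e chr5:120788864-120788888 (-), exon 4, hold the only GGACT of each gene's coding sequence.
Oas1d: cgaaaaccctGGACTccatacagcc
Oas1e: agacagctttGGACTccatgcagcc
Ifit1 chr19:34647869-34647893 (+), exon 2, and Ifit1bl2 chr19:34619763-34619787 (-), exon 3, hold the same 25 letters, as does Ifit1bl1.
Ifit1: gtgctgagatGGACTgtgaggaagg
Ifit1bl2: gtgctgagatGGACTgtgaggaagg
The chosen Oas1c transcript held no GGACT in its 2291 bases. By the wider consensus DRACH (D, any base but C; R, A or G; H, any base but G), the coding sequences of Oas1c, Oas1d and Oas1e held 25, 24 and 26 matches, or 23.0, 22.1 and 22.4 per kb, beside a median of 20.5 per kb over 21901 protein-coding genes. GGACT occurred in the coding sequence of 71.8% of those genes, so its presence or absence in a member is a common state.

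Promoters were searched for GAAA, any 2 bases and GAAA again, the core of the interferon-stimulated response element, on both strands and with overlapping matches counted, in windows of 250 bases before and 50 after RefSeq starts (GRCm38.p6). Windows were at hand for 6 of the 8 members, and 5 of the 6 held the element (Oas1c, Ifit1, Ifit3, Ifit1bl1 and Ifit1bl2), beside 3.99% of 27025 genes with a window. The windows of Ifit1 and Ifit1bl2 overlap and hold the same 2 matches, and a second window of Ifit1bl2, at another start, held none. The 2 intervals below are shown because each separates the start of an abundant member from that of a divergently transcribed neighbour, and the capitals mark the element. The first lies between Oas1c and Oas1b, chr5:120812515-120812634, written 5' to 3' toward Oas1c. Its 2 matches overlap.
Oas1c to Oas1b: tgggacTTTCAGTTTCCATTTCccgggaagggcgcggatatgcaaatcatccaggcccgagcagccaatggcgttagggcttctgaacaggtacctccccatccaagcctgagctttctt
The second lies between Ifit1bl2 and Ifit1, chr19:34640744-34640870, written 5' to 3' toward Ifit1. It is 127 bases long and holds 2 matches.
Ifit1bl2 to Ifit1: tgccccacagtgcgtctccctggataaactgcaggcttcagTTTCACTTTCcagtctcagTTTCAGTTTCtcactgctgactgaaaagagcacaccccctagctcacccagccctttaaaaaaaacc

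SLIM-seq libraries held 11107421 to 39739950 estimated counts. The labelled stages were in order by their markers: the summed level of 10 oocyte genes was 11199 to 13270 CPM (counts relative to library size after TMM scaling between libraries) in MII inputs and 843 to 884 CPM in L2C inputs, and that of 7 genes of the 2-cell stage such as Zscan4d rose from 34.9 to 42.9 CPM to 265 to 390.0 CPM. Among markers of cells that could come with oocytes, 12 cumulus and granulosa genes summed to 51.3 to 62.8 CPM in inputs from MII, 39.6 to 45.6 from L1C and 7.81 to 8.73 from L2C. Of these 12, Ptx3 was at 0 in every input, 5 genes were at or under the floor of 3 counts in all 3 MII inputs, and Cyp19a1 made up most of the sum with a mean of 43.0 CPM. A list of 9 blood and immune genes summed to 8.71 to 10.5 CPM in MII inputs, with Cd3e at 0. The 8 members together summed to 7890 to 11645 CPM in the same libraries, and what other cells add to them was not tested.

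Oas1d, Oas1e and Oas1c were among the most abundant protein-coding transcripts of the oocyte, while the Ifit genes ranged from abundant to nearly silent. Per kb of exons, the members fell in the order Oas1d, Oas1e, Oas1c, Ifit1bl2, Ifit1bl1, Ifit3, Ifit1 and Ifit2 at MII. By this measure Oas1d ranked 12, Oas1e 15, Oas1c 125 and Ifit1bl2 1141 of 21974 protein-coding genes. By the deposited TPM, whose lengths include introns, Oas1e ranked 24 and Oas1c 244. The mean levels per kb were 2301 ± 517 CPM for Oas1d, 2081 ± 472 for Oas1e and 318 ± 54.4 for Oas1c (SD, n = 3). Oas1d lay above Oas1e in each of the 3 MII inputs, although their ranges over libraries overlapped, and Oas1c lay below both in every library. Ifit3 and Ifit1 stood at 0.242 ± 0.0891 and 0.238 ± 0.0746 CPM per kb, also within their spread.

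Oas1d read 5840.0, 4228 and 3884 CPM in the MII inputs, 2632, 2306 and 3183 CPM in the L1C inputs and 137, 184 and 150.3 CPM in the L2C inputs. The groups did not overlap, and each stage was lower than the one before. Between MII and L1C inputs Oas1d fell by 0.69 on the log2 scale (SE 0.17, 1.61-fold, adjusted p = 0.00347, edgeR quasi-likelihood test with Benjamini-Hochberg adjustment over all genes, as for every adjusted p below). Between L1C and L2C it fell by 3.87 (SE 0.19, 14.6-fold, adjusted p = 1.6e-10).

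Oas1e was at 4717, 3391 and 3135 CPM in MII oocytes, 2315, 1985 and 2739 CPM in L1C embryos, and 28.2, 37.2 and 34.4 CPM in L2C embryos. It thus followed Oas1d through fertilization but dropped further afterwards. Oas1e fell by 0.59 between MII and L1C (SE 0.17, adjusted p = 0.00859), and it fell by 5.90 between L1C and L2C (SE 0.21, 59.8-fold, adjusted p = 6.9e-12). Without MII input replicate 1 the first of these no longer passed (adjusted p = 0.0517).

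Oas1c went the other way after fertilization, from 915, 689 and 688 CPM at MII to 1061, 926 and 1323 CPM at L1C, where every library stood above every MII library. It rose by 0.62 (SE 0.17, 1.54-fold, adjusted p = 0.00586), then fell by 5.04 (SE 0.20, 33.0-fold, adjusted p = 1.8e-11) to 23.5, 32.8 and 28.7 CPM at L2C. Where the counts of Oas1c, Oas1d and Oas1e were summed as 1 gene, the sum fell by 0.48 between MII and L1C (adjusted p = 0.0254), the direction of the more abundant Oas1d and Oas1e. The spans of Oas1c and Oas1e are overlapped on the opposite strand by Gm43069, a gene at 72.7 to 140.0 CPM in MII inputs and 107 to 134 CPM in L1C inputs. Adding the counts of Gm43069 to either gene changed no call.

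Ratios between members within a library do not depend on scaling between libraries and varied little within a stage. The log2 ratio of Oas1e to Oas1d counts was -0.31 ± 0.0055 in the inputs at MII, -0.21 ± 0.018 for L1C and -2.24 ± 0.094 for L2C (SD, n = 3). That of Oas1c to Oas1d was -2.60 ± 0.091, -1.30 ± 0.027 and -2.47 ± 0.078. Of all counts given to the 8 Oas1 genes, the 3 members took on average 91.8% (MII), 90.6% (L1C) and 89.6% (L2C) in the inputs. Oas1a and Oas1g, which code for active synthetases, took 0.00411% and 0.00688% at MII, with estimated counts of 4.36 to 8.21 and 6.79 to 21.9 per library. Since 68.8% of the words of Oas1a were shared within the cluster, mainly with Oas1g, even these low counts could be divided between them.

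**Figure D1:**
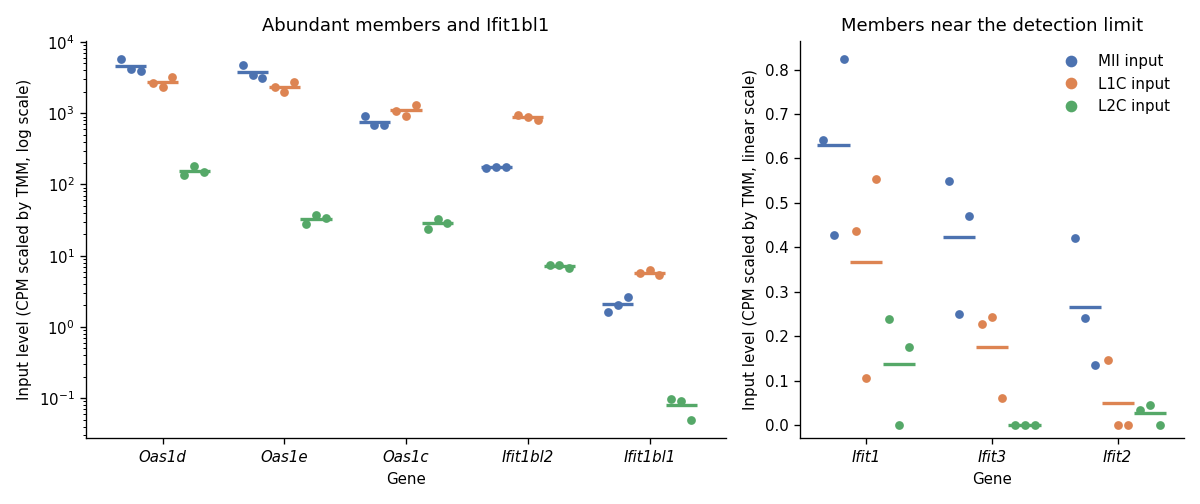
Level of each gene in the 9 input libraries, in CPM scaled by TMM, on a log axis for 5 genes (left) and on a linear axis for the genes near the detection limit (right). Points are libraries and bars are means (n = 3); between MII and L1C, Oas1d and Oas1e go down and Oas1c and the Ifit1bl genes go up, and all 5 genes on the left were lowest at L2C.

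Ifit1bl2, the abundant Ifit member, was at 169, 175 and 178 CPM in inputs of the oocyte, 941, 875 and 802 CPM in those of L1C embryos and 7.42, 7.44 and 6.79 CPM in those of L2C embryos. Its fitted difference between L1C and MII was 2.41 on the log2 scale (SE 0.11, 5.32-fold) and between L2C and L1C -6.68 (SE 0.14). These values are a description, since the gene was chosen on these libraries. They brought Ifit1bl2 from rank 1141 to rank 140 by CPM per kb of exons at L1C, and to 8040 at L2C. By the deposited TPM these ranks were 1634, 304 and 8350.

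Ifit1bl1, its neighbour, went the same way at a far lower level, with 1.63, 2.04 and 2.61 CPM at MII and 5.67, 6.23 and 5.39 CPM at L1C. It rose by 1.55 (SE 0.27, 2.93-fold, adjusted p = 2.3e-04). At L2C only 7 counts were left in the 3 inputs together, against 324 at L1C, a ratio of 61.5 in summed CPM with a 95% interval from counting of 29.5 to 154. The test between L2C and L1C gave adjusted p = 2.5e-09, but Ifit1bl1 passed the filter on low counts through its MII and L1C libraries, so a fall to L2C was partly fixed by the filter. Ifit1bl1 has 412 words in common with the more abundant Ifit1bl2, and how many counts of Ifit1bl1 came from its neighbour was not tested.

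Ifit1, which shares the 127-base interval with Ifit1bl2, stayed near the detection limit in every stage. It read 0.642, 0.428 and 0.824 CPM in MII oocytes, 0.437, 0.107 and 0.554 in L1C embryos, and 0.238, 0 and 0.174 in L2C embryos. The L1C values overlapped those of both other stages. Between MII and L2C Ifit1 fell by 1.73 (SE 0.71, adjusted p = 0.0347), from 32 summed counts to 14, a ratio of 3.06 in summed CPM (95% interval from counting 1.59 to 6.21). Ifit1 passed the filter on low counts only through stages where it was higher, so this direction was partly fixed by the filter. The call was lost without MII input replicate 1 or 3, without L2C input replicate 2 or 3 (adjusted p of 0.0696 to 0.109), with DESeq2 (adjusted p = 0.0907) and with scaling by library size alone (-1.59, adjusted p = 0.0519).

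Ifit2 and Ifit3 did not pass the filter on low counts and were not tested. Ifit2 had 14 summed counts in the MII inputs, 3 at L1C and 2 at L2C. Ifit3 had 22, 10 and 0 in the same order, and a count of 0 in those 3 inputs allows up to 0.0351 CPM. With L2C set at that floor, the ratio of MII to L2C for Ifit3 was 9.82, and the 95% interval from counting had a lower limit of 7.34-fold.

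Over the 7 members that can be tested, 5 passed the filter on low counts. Between MII and L1C inputs 4 were called, 2 higher (Oas1c and Ifit1bl1) and 2 lower (Oas1d and Oas1e), beside 56.2% of all genes tested (31.9% higher and 24.3% lower). Between L1C and L2C 4 were called lower (the 3 Oas1 members and Ifit1bl1), beside 82.9% of all genes called (44.1% higher and 38.8% lower). Between MII and L2C the 5 tested were called lower, beside 84.6% called (47.5% higher and 37.1% lower). Of these, Ifit1 and Ifit1bl1 passed the filter through stages other than L2C, so their calls are no support for a fall, and the 3 Oas1 members were well above the filter in every input. The median log2 change of the 3 Oas1 members between L1C and L2C was -5.04, beside 0.17 over all 19903 genes tested.

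Other genes rose and fell with them in very similar profiles. Over the 9 inputs, on log2(CPM + 1) and outside both clusters, the protein-coding genes most like Oas1d were Zfp235 and Eps8l3 (Pearson r of 1.000 and 0.999), those most like Oas1e were Ttll11 and H2-Aa, and those most like Oas1c were Gpnmb and Mterf4. Nrsn1 and Cep41 were most like Ifit1bl2, and Zfp58 and Tdrd3 most like Ifit1bl1. These values describe 3 stages of 3 libraries each, and 222 genes reached 0.99 for Oas1c, 363 for Oas1d and 431 for Oas1e, so many genes shared the same steps. Ifit1 had no gene at 0.99, and its closest were Rab9 and Nedd4 (r = 0.93 for both).

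The rest of the Oas family mostly fell as well. Of 9 other Oas genes, 7 passed the filter in the inputs, and between L1C and L2C 6 fell and 1 rose, with a median log2 change of -2.75. The 6 include Oas1g, at means of 0.883 CPM (L1C) and 0.0685 CPM (L2C). It passed the filter only through stages other than L2C, so its fall was partly fixed by the filter. Oas1h, which was level with Oas1c in MII inputs (means of 765 and 764 CPM), fell by 5.18 (adjusted p = 9.3e-12), and Oas3 fell by 4.03. Oasl2 rose by 1.68 (adjusted p = 5.6e-04).

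Of 17 genes for interferon receptors and their signalling, all were tested, and 9 rose and 5 fell between L1C and L2C, beside 44.1% of all genes higher and 38.8% lower. Irf7, at means of 0.247 CPM (MII), 0.462 CPM (L1C) and 16.3 CPM (L2C), was near or under the filter before L2C. Its rise was thus partly fixed by the filter, and the count of 9 includes it. Socs3, a feedback inhibitor of cytokine signalling, rose by 5.65 to a mean of 500.2 CPM, and the transcription factors Irf3 and Stat2 rose by 3.19 and 2.98. The kinases Jak1 and Tbk1 fell by 2.34 and 1.91. Of 27 other interferon-stimulated genes, 17 were tested, of which 11 rose and 4 fell, with a median of 1.32. Ifi35 rose by 7.24, whereas Cmpk2 fell by 2.79. Isg15 rose by 4.35, from a mean of 0.156 CPM (L1C) to 2.85 CPM (L2C). It passed the filter only through its L2C libraries, so this direction was fixed by the filter. Ifitm1 (means of 0 CPM at L1C and 0.715 CPM at L2C) and Irgm1 (0.0782 and 0.762 CPM) also needed their L2C libraries to pass. The count of 11 and the median include these genes. Among 13 interferon genes only Ifng passed the filter, likewise through its L2C libraries alone, with means of 0.0404 CPM (L1C, below the floor of 3 counts) and 4.02 CPM (L2C), while Ifnb1 was at 0 in every input. Of 10 sensors of foreign RNA and DNA tested, 3 rose and 6 fell, with a median of -0.71. The 3 include Tmem173, at means of 0 CPM (L1C) and 1.30 CPM (L2C), which passed the filter only through its L2C libraries. Its direction was thus fixed by the filter as well. For comparison, 9 of 10 oocyte markers fell and 1 rose over the same step. Of 6 sperm and testis markers 2 passed the filter, and Prm1 did so only through its L2C libraries, with a mean of 59.5 CPM beside 0 at the other stages.

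**Figure D2:**
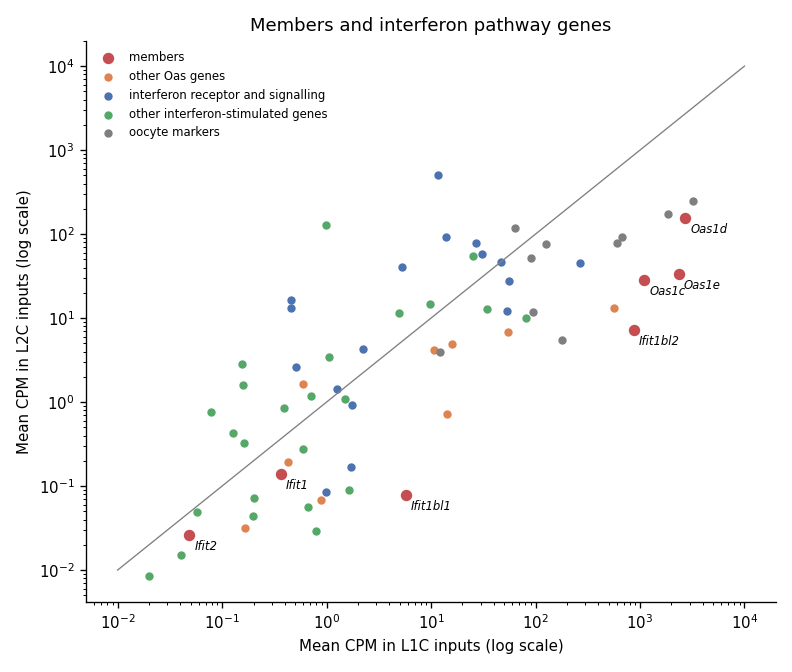
Mean level in L2C inputs against mean level in L1C inputs (CPM scaled by TMM, both axes on a log scale, n = 3 each) for the members, 3 lists of pathway genes and the oocyte markers; the line marks equal levels. Oas1c, Oas1d, Oas1e, Ifit1bl2 and Ifit1bl1 lie far below the line and 9 of 10 oocyte markers also fell (median log2 change of the 10, -2.65), while interferon-stimulated and signalling genes lie on both sides; 1 member and 3 interferon-stimulated genes at 0 in a group are not drawn.

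The IP libraries ask which of these RNAs were recovered with the m6A antibody beyond their input level. Oas1c, Oas1d and Oas1e differed in this respect in the oocyte. Oas1c was enriched in the MII IP, Oas1d was depleted and Oas1e was at neither side of its input. Gene-level counts do not locate the modified base, and a gene that is not enriched can still be modified. The mRNAs of mitochondrial DNA were also enriched in the same IP libraries, 12 of 13 at MII with a median log2 ratio of 1.74, 13 of 13 at L1C (1.86) and 12 of 13 at L2C (1.64). What this recovery has in common with the ratios of the members was not tested.

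Oas1c read 1856, 2111 and 1385 CPM in the MII IP libraries against 915, 689 and 688 CPM in the inputs, without overlap. The log2 ratio of IP to input was 1.22 (SE 0.17, 2.34-fold, adjusted p = 1.0e-05). At L1C the IP libraries read 1094, 1060.3 and 909 CPM against 1061, 926 and 1323, and at L2C 28.1, 25.0 and 27.0 against 23.5, 32.8 and 28.7. The groups overlapped at both stages, with log2 ratios of -0.11 (SE 0.17, adjusted p = 0.653) and -0.08 (SE 0.17, adjusted p = 0.737). Summed with Oas1d and Oas1e as 1 gene, the ratio at MII was -0.23 and was not called.

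Oas1d read 2449, 3261 and 1989.9 CPM in the MII IP libraries, all below its inputs. Its log2 ratio was -0.86 at MII (SE 0.19, adjusted p = 0.00139) and -0.62 at L1C (SE 0.19, adjusted p = 0.0173). At L2C it was -0.47 (SE 0.19), with IP libraries at 128, 93.3 and 117 CPM again all below the inputs, but this did not pass (adjusted p = 0.0526). The call at L1C was lost without input replicate 3 (adjusted p = 0.0915), without IP replicate 3 (adjusted p = 0.0721) and when libraries were scaled by size alone (log2 ratio -0.31, adjusted p = 0.181). The call at L2C was gained with DESeq2 (adjusted p = 0.0353).

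Oas1e gave overlapping IP and input libraries at every stage, with IP values of 3312, 4345 and 2655 CPM for MII, 2259, 2221 and 1788 for L1C and 36.8, 29.3 and 33.7 for L2C. Its log2 ratios were -0.12 (adjusted p = 0.658), -0.17 (adjusted p = 0.527) and 0.00 (adjusted p = 0.993). Within libraries the order of Oas1e and Oas1d was nevertheless turned round in the IP at MII and L1C. In MII libraries the log2 ratio of Oas1e to Oas1d counts was 0.44, 0.41 and 0.42 in the IP and -0.31, -0.32 and -0.31 in the input. The same ratio was 0.24 ± 0.026 in L1C IP libraries and -1.75 ± 0.071 in L2C IP libraries, above the inputs of its stage in every library.

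**Figure D3:**
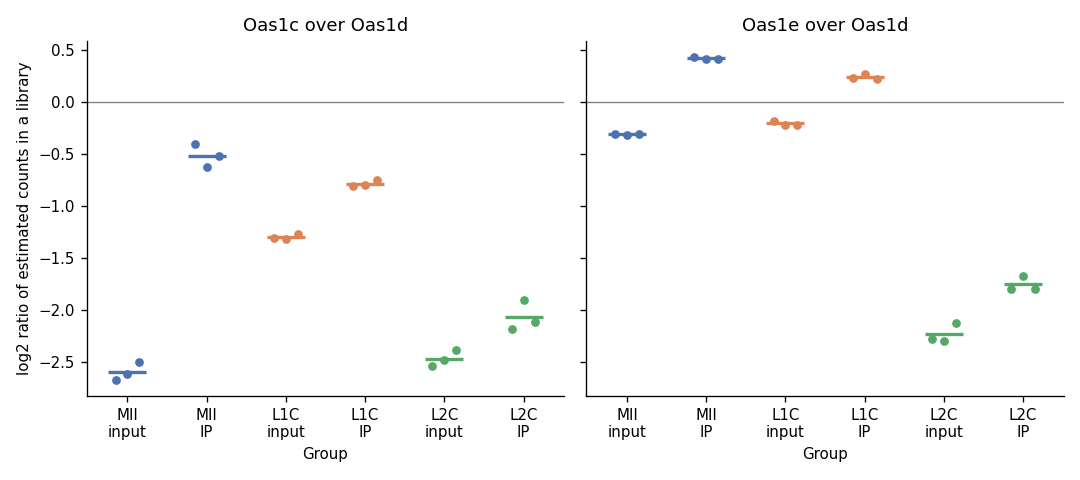
Log2 ratio of the estimated counts of Oas1c (left) and Oas1e (right) to those of Oas1d within each of the 18 SLIM-seq libraries; points are libraries, bars are means (n = 3) and the line marks equal counts. Every IP library lies above every input library of its stage in both panels, and for Oas1c the gap is widest at MII, from -2.60 in the input to -0.52 in the IP.

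Ifit1bl1 read 3.60, 3.06 and 3.95 CPM in the MII IP libraries, all above the inputs, and its log2 ratio was 0.76 (SE 0.27, 1.69-fold, adjusted p = 0.0300). This call rested on 63, 59 and 64.0 estimated counts against 31, 34 and 39. It was lost in each fit without MII input replicate 1 or 2 or without MII IP replicate 1 or 3, where adjusted p ranged from 0.0699 to 0.130, and without the filter on low counts (adjusted p = 0.102). At L1C its log2 ratio was -0.29 (SE 0.24, adjusted p = 0.392), and at L2C it was 0.93 (SE 0.53, adjusted p = 0.242) from 3.01 to 6.13 counts per IP library.

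Ifit1bl2, given as a description at the stages it was chosen on, read 596, 536 and 594 CPM in the MII IP libraries, a log2 ratio of 1.72 (SE 0.10, 3.30-fold). In the L1C IP libraries it read 749.6, 741 and 711 CPM, all below its inputs, a log2 ratio of -0.25 (SE 0.10), which turned to 0.053 with scaling by library size alone. Its level was thus higher at L1C than at MII in both IP and input libraries, and by more in the input. At L2C, where it can be tested, the IP libraries read 7.48, 8.82 and 7.87 CPM and the log2 ratio of 0.15 (SE 0.11) did not pass (adjusted p = 0.269). With scaling by library size alone it was 0.40 and passed (adjusted p = 0.00725).

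Ifit1 gave no call at any stage, with SE of 1.04 to 1.26 on the log2 scale, which limits what could be seen. Of the 7 members that can be tested at MII, 5 passed the filter and 3 were called, 2 higher and 1 lower, beside 38.6% of all genes called (17.7% higher and 21.0% lower). At L1C 1 was called, lower, beside 33.9% (15.8% higher and 18.2% lower). At L2C 0 of the 6 tested were called by edgeR, beside 44.0% (22.0% in each direction). At L2C 1 member had an unadjusted p under 0.05, and 1 was called by DESeq2, Oas1d in both cases.

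**Figure D4:**
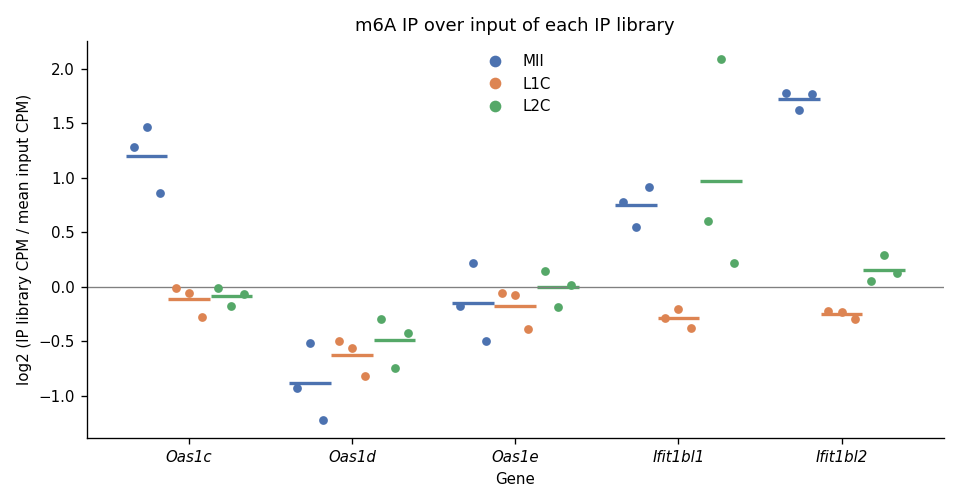
Log2 ratio of each IP library to the mean of the 3 inputs of its stage, in CPM scaled by TMM, for 5 genes at 3 stages; points are IP libraries and bars are means (n = 3). Oas1c and Ifit1bl2 stand near 1.20 and 1.72 at MII and close to 0 at the later stages, Oas1d stays below 0 at every stage, and the L2C points of Ifit1bl1 rest on few counts.

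The change of the ratio between stages was tested as an interaction. For Oas1c the log2 ratio fell by 1.34 from MII to L1C (SE 0.24, adjusted p = 0.00128) and by 1.30 from MII to L2C (SE 0.24, adjusted p = 7.5e-04), and changed by 0.03 from L1C to L2C (SE 0.24, adjusted p = 0.973). With the 3 members summed as 1 gene the change from MII to L1C was -0.10 (adjusted p = 0.933) and that from MII to L2C was -0.10 (adjusted p = 0.872). Oas1c was the only member called, 1 of 5 tested from MII to L1C and 1 of 5 from MII to L2C, beside 7.33% of all genes called for the first change (3.13% higher and 4.21% lower) and 20.3% for the second (11.1% higher and 9.21% lower). Oas1d and Oas1e were not called, with changes of 0.24 (SE 0.27, adjusted p = 0.709) and -0.04 (SE 0.26, adjusted p = 1.000) from MII to L1C. Ifit1bl1 changed by -1.05 (SE 0.36), which missed the threshold (adjusted p = 0.0904) and passed it with DESeq2 (adjusted p = 0.0340). Ifit1bl2, for which this contrast was the rule, changed by -1.97 from MII to L1C and by -1.57 from MII to L2C. From L1C to L2C no member was called by edgeR or at an unadjusted p under 0.05, beside 9.47% of all genes (5.0% higher and 4.47% lower).

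Of the other Oas genes, 8 were tested in the IP at MII, and 2 were enriched and 3 depleted. Oas1f (log2 ratio 0.70, adjusted p = 0.00943) and Oas1h (0.49, adjusted p = 0.0348) were enriched, whereas Oas3 (-1.59), Oasl2 (-1.29) and Oas1b (-0.60) were depleted. The cluster on chromosome 5 thus held genes on both sides of their inputs in the same libraries. In the signalling list 8 of 17 genes were depleted at MII and 2 enriched, with a median of -0.82, beside a median of 0.00 over all genes tested, of which 21.0% were lower and 17.7% higher. Tyk2 and Stat2, the kinase and transcription factor of the type I interferon receptor, were among the depleted (-3.44 and -1.80). Of 19 other interferon-stimulated genes tested, 3 were enriched and 2 depleted, with Samhd1 at 1.41 and Cmpk2 at -0.79.

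In the Ythdc1 experiment the target was first checked in every library. Ythdc1 read 523, 541 and 519 CPM in KD libraries and 1080.2, 1098 and 994 CPM in control libraries, without overlap. The counts of all 6 libraries were at hand for 25739 genes, with 3276715 to 5463868 counts per library, and these lie on chromosomes 1 to 7 and X, so they include the Oas1 genes but no Ifit gene, and counts and shares of calls from this table cover that part of the genome only. CPM from this table refer to those genes only and cannot be set beside the SLIM-seq levels. For KD replicate 3 the counts at hand end on chromosome 7, so Ifit values come from 2 KD and 3 control libraries, with 8696476 to 14500548 counts each.

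Oas1c and Oas1d were lower in KD embryos, and Oas1e was not called. Oas1c had 80, 82 and 131 counts in the KD libraries and 303, 221 and 221 in the controls, or 19.1, 22.8 and 25.4 CPM against 53.8, 44.0 and 64.0 CPM. It fell by 1.25 on the log2 scale (SE 0.16, 2.38-fold, adjusted p = 1.1e-06). Oas1d, at 87.0, 80.1 and 82.9 CPM against 115, 121 and 127 CPM, fell by 0.53 (SE 0.09, 1.45-fold, adjusted p = 4.4e-05). Neither gene's groups overlapped.

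Oas1e read 64.1, 60.1 and 66.6 CPM in KD and 61.4, 65.7 and 62.0 CPM in control libraries, which overlapped, with a log2 difference of 0.01 (SE 0.10, adjusted p = 0.905). Within libraries, the log2 ratio of Oas1e to Oas1d counts was -0.39 ± 0.067 in KD and -0.94 ± 0.084 in control embryos (SD, n = 3). That of Oas1c to Oas1d was -1.90 ± 0.25 and -1.18 ± 0.25. Summed as 1 gene, the members fell by 0.49 (adjusted p = 1.7e-05). Of the 3 Oas1 members 2 were called, both lower, beside 70.9% of 7433 genes called (33.5% higher and 37.4% lower), so a call as such was the common outcome in this contrast.

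Elsewhere in the cluster Oas1h fell by 2.30 (16.5, 13.6 and 13.9 CPM against 74.2, 73.7 and 68.9, adjusted p = 5.3e-11) and Oas1f by 1.29 (adjusted p = 0.00332). Oas1b, at 8 to 27 counts in KD and 6 to 15 in control libraries, was not called (adjusted p = 0.125). Oasl1 rose by 3.26 (SE 0.51, adjusted p = 1.6e-05). In the same libraries all 5 tested markers of the 2-cell stage were lower in KD embryos, Zscan4c by 2.30 and Zfp352 by 1.95. Of 5 oocyte markers 2 were lower and 1 higher, with log2 differences of -1.13 for Bmp15 and 0.48 for Zp3. Over the whole annotation, in 2 KD and 3 control libraries, 6 of 10 oocyte markers were lower and 2 higher (median -0.63), and all 7 tested markers of the 2-cell stage were lower (median -1.52). Of 4 cumulus and granulosa markers tested 3 were lower (median -3.29). What the stage of the embryos or other cells add to the differences of the Oas1 genes was not tested.

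Ifit1bl2 was the only Ifit member to pass the filter in this experiment. It had 57 and 53 counts in the KD libraries and 75, 73 and 50 in the controls, or 5.27 and 5.67 CPM against 5.13, 5.59 and 5.54 CPM. The groups overlapped and the log2 difference was 0.02 (SE 0.23, adjusted p = 0.959), beside 66.8% of 17074 genes called (30.5% higher and 36.4% lower). Ifit1 and Ifit3 had 1 count each in 1 KD library and 0 in the others, and Ifit2 and Ifit1bl1 had 0 in all 5. At this depth a count of 0 in a library allows 0.207 to 0.345 CPM. Of 14 signalling genes tested, 4 were higher and 5 lower in KD embryos, with a median of -0.14. Socs3 rose by 2.19 (adjusted p = 7.7e-10), whereas Jak1 fell by 0.41 (adjusted p = 0.00299).

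**Figure D5:**
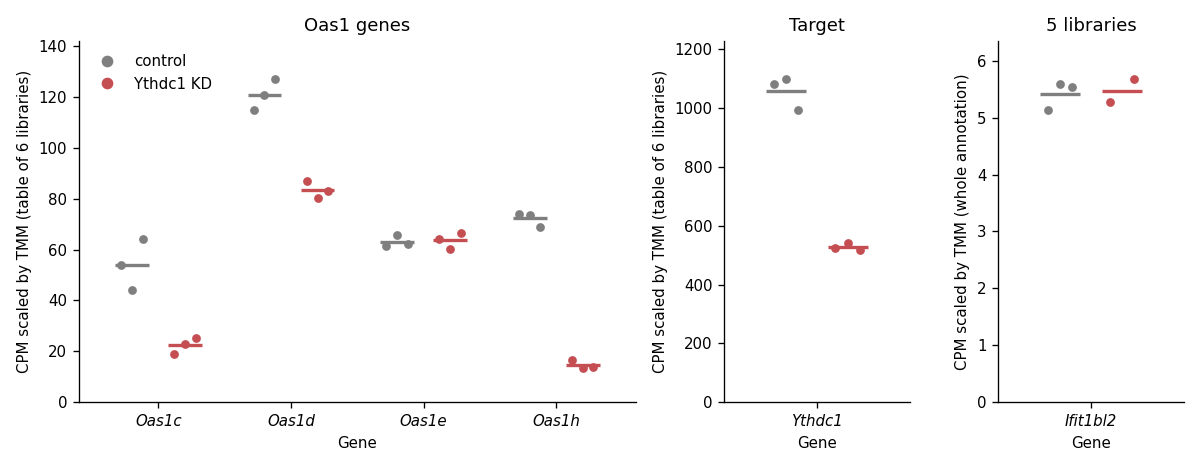
Level in control and Ythdc1 KD late 2-cell embryos, in CPM scaled by TMM on linear axes from 0: 4 Oas1 genes (left) and the target (middle) in 6 libraries, and Ifit1bl2 (right) in 5 libraries counted over the whole annotation. Points are libraries and bars are means; Oas1c, Oas1d and Oas1h lie lower in KD, while Oas1e and Ifit1bl2 overlap.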

How the data were processed

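SLIM-seq values were the authors' kallisto estimated counts per gene (GRCm38), deposited for 18 libraries, together with deposited TPM. All 55471 targets were as long as the whole gene, introns included, so intronic reads enter the estimated counts. No use of strand is stated, so overlapping genes may share reads. Knockdown values were deposited featureCounts 2.0.1 counts over exons from HISAT2 alignments, counted without a strand option. The labels name a stranded kit, whereas the study's methods describe an oligo-dT, Smart-seq2-based protocol.

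Estimated counts were rounded. Libraries were scaled by TMM, genes with low counts removed by filterByExpr (minimum count 10), and edgeR 4.0.16 quasi-likelihood fits made over the 18 SLIM-seq libraries (IP against input at each stage and the change of that ratio), the 9 inputs (stages) or the knockdown libraries (KD against control). P-values were adjusted over all genes, with calls at 0.05. The fits were first checked on simulated counts in which 200 genes were changed. DESeq2 1.42.0 and the other alternatives are given in the closing section. For a summed count of 0, the floor was 3 counts. Intervals and floors cover counting error only. Levels per kb used the exon length. Names matched GENCODE M21 for 55230 genes. Mb21d1 and Dux of the lists were not matched. Results for 1 list are not reported here.

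The members, gene lists and tests were chosen with earlier results of these data known. Named list genes are, per list and comparison, up to 4 called genes with the smallest p and up to 4 others with the highest input level, and for each member the 2 genes with the highest Pearson r over inputs.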

Additional observations from a re-analysis of the deposited data

Results flagged for a closer look

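The change of the Oas1c IP-to-input ratio differed between stages by a test of the difference itself. It fell by 1.34 on the log2 scale from MII to L1C (adjusted p = 0.00128, edgeR) and fell by 1.30 from MII to L2C (adjusted p = 7.5e-04, edgeR). With Oas1c, Oas1d and Oas1e summed as 1 gene, the changes were -0.10 (adjusted p = 0.933) and -0.10 (adjusted p = 0.872), and neither passed. All 3 MII IP libraries lay above their inputs, at 1.28, 1.47 and 0.86, and the L1C and L2C ratios lay between -0.28 and -0.01. Both comparisons share the MII libraries.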

How the results depend on the processing

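Summing similar genes (Oas1c with Oas1d and Oas1e, Ifit1bl1 with Ifit1bl2) gives the value of the sum in place of the member's, by construction. It turned 4 directions: IP against input at MII for Oas1c (-0.23), input L1C against MII for Oas1c (-0.48), KD against control for Oas1e (-0.49) and the change from MII to L2C for Ifit1bl1 (-1.55). Scaling by library size alone moved the median log2 IP-to-input ratio of all genes by 0.20 (MII), 0.30 (L1C) and 0.25 (L2C), the L2C-to-MII input median by 0.14 and the KD median by -0.12. Under it the L1C ratio of Ifit1bl2 turned from -0.25 to 0.053, 0 members were called in the IP at L1C and 1 at L2C (Ifit1bl2, higher). At L2C another member, Oas1d, was called lower without the filter on low counts, with DESeq2, with only the stage compared, and at an unadjusted p under 0.05. The study's thresholds left 0 members at L1C, where they count only genes higher in the IP and so could not count Oas1d, and 1 of the Oas1 members in the KD contrast. For the change from MII to L1C, DESeq2, a fit of only the stages compared and an unadjusted p gave 2 members. A log2 change above 1 left 1 member between MII and L1C inputs. The cause of the differences between tools and filters was not tested.

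Leaving out 1 library gave 2 to 3 called members in the IP at MII, 0 to 1 at L1C and 0 to 1 at L2C, 1 to 2 for the change from MII to L1C, 3 to 4 between MII and L1C inputs and 4 to 5 between MII and L2C inputs. The other counts of called members did not move. In the IP at L1C the count was 0 without input replicate 3 or IP replicate 3. At L2C it was 1 in 10 such fits. The study says that IP and input RNA came from common batches, but no source used here says that a replicate number marks a batch. The deviations of same-numbered libraries from the group means correlated at -0.301 to 0.181 (IP with input), -0.127 to 0.295 (inputs) and -0.0344 to 0.0228 (KD with control). With a replicate block the calls of the members were as without it, while the calls over all genes went from 1609 to 1067 for the change from MII to L1C and from 2079 to 1168 for that from L1C to L2C. Few counts limit Ifit1, Ifit2, Ifit3 and, at L2C, Ifit1bl1.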
